A study of Mus musculus with 21 samples.

Results

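The response of double knockout (DKO) mouse liver to carbon tetrachloride (CCl4) was read from 2 groups of RNA-seq, DKO at 2 months and DKO at 3 months with CCl4, of 21 samples in the series. Genes were taken where FPKM (fragments counted per gene, scaled to gene length and sequencing depth) was at least 1 in at least 1 of the 2 groups, which kept 11181 of 22520. The response of a gene is its difference of log2(FPKM+1), CCl4 minus 2 months. DKO mice were Ezh1-/-Ezh2fl/flAlb-Cre, so that Ezh1 was lost in every cell and Ezh2 was deleted where the albumin promoter drives Cre, in hepatocytes and not in the other cells of the liver. E2KO mice (Ezh2fl/flAlb-Cre) kept Ezh1, E1KO mice (Ezh1-/-) kept Ezh2, and the group called WT carried Ezh2fl/fl without Cre. All groups were on a mixed 129SV::FVB/N::C57BL/6 background. Treated mice of all 4 genotypes received 2 ml/kg CCl4 into the peritoneum, 2 times a week for 2 weeks from 3 months of age, and the livers were taken 24 h after the last dose. The treated mice were therefore at least 1 month older than the untreated ones, and no untreated group of 3 months was used, so CCl4 and this age difference cannot be told apart. Values of untreated DKO at 8 months are given beside part of the genes.

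Either Ezh1 or Ezh2 serves as the catalytic subunit of Polycomb repressive complex 2 (PRC2), which places the repressive mark H3K27me3 on developmental regulators and cell cycle inhibitors. CCl4 is harmless until hepatocytes near the central vein convert it to a radical, chiefly through the cytochrome P450 Cyp2e1, and these pericentral cells are the ones that die. The survivors divide to restore the liver, macrophages clear the debris, and stellate cells turn into contractile myofibroblasts that lay down collagen. The series title names liver fibrosis in mice without EZH1 and EZH2, so each of these steps is a question the DKO group bears on.

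Each group is 1 value per gene, although the sample titles name replicates 1 to 3, and the sources used here do not tell how these were combined. No spread between animals can therefore be had. A test across genes was made with limma on the 8 groups of 2 months and CCl4, with terms for genotype, CCl4 and a separate DKO response. Its error comes from how unequally WT, E1KO and E2KO responded to CCl4 (2 residual degrees of freedom), and DKO is assumed to vary as they do. In this text a gene "rose" or "fell" only where the Benjamini-Hochberg adjusted p of this test was under 0.05. Liver identity was plain in the untreated DKO group, with Apoc3, an apolipoprotein of hepatocytes, at 10452 FPKM, while 13 skeletal muscle genes summed to 1.56 FPKM. In whole liver, fewer cells of a type and less RNA per cell cannot be told apart.

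With CCl4, 998 of the 11181 genes (8.93%) were at least 2-fold higher on the log2(FPKM+1) scale in DKO and 464 (4.15%) at least 2-fold lower. In E2KO the same genes gave 1088 (9.73%) and 669 (5.98%), in WT 945 (8.45%) and 576 (5.15%), and in E1KO 1198 (10.7%) and 799 (7.15%). By limma 636 genes rose (5.69%) and 319 fell (2.85%) in DKO, and 482 and 217 of these were also past 2-fold. Over all 11695 genes of at least 1 FPKM in any of the 8 columns, the set fitted, the calls were 638 (5.46%) and 319 (2.73%). The median over all 11181 genes was 0.09, so lists are read against that shift, and with each column centred on its median the fit gave 677 rises and 543 falls. These calls lean on the other genotypes: without the WT columns 14 genes were higher and 12 lower, and without the E2KO columns none passed and 3198 genes had an unadjusted p under 0.05 in limma. Because genes near 0 in the other genotypes have almost no spread there, they pass easily. Under 1 FPKM in all 6 columns of WT, E1KO and E2KO were 97 of the 636 rises and 24 of the 319 falls. Among all 11181 genes of the rule 292 were.

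The DKO response itself differed from the mean response of the other 3 genotypes in 29 of 11695 genes fitted by limma, 18 of them higher (0.154%) and 11 lower (0.0941%), with 1110 genes (9.49%) at an unadjusted p under 0.05. Of the 29, 19 are microRNA genes at 0 FPKM in every column of the other genotypes, whose FPKM is unreliable because such transcripts are shorter than a fragment, and they are not described further. The remaining 10 were all higher in DKO: Slc1a2, Igf2, Sult2a2, Serpina7, Gpc3, Tff2, Sult2a1, Sult2a5, Hoxa11as and Hoxa10. Of these, 7 (all but Slc1a2, Serpina7 and Gpc3) were under 1 FPKM in all 6 columns of the other genotypes and entered the fit through DKO alone, so for them only values are given below, with no test of the difference. With a pseudocount of 0.1 FPKM no gene passed this test, and 1026 genes had an unadjusted p under 0.05 in limma. Set against E2KO alone (1 residual degree of freedom), none of 11695 genes passed by limma and 722 (6.17%) had an unadjusted p under 0.05, so the E2KO values below are given side by side.

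**Figure D1:**
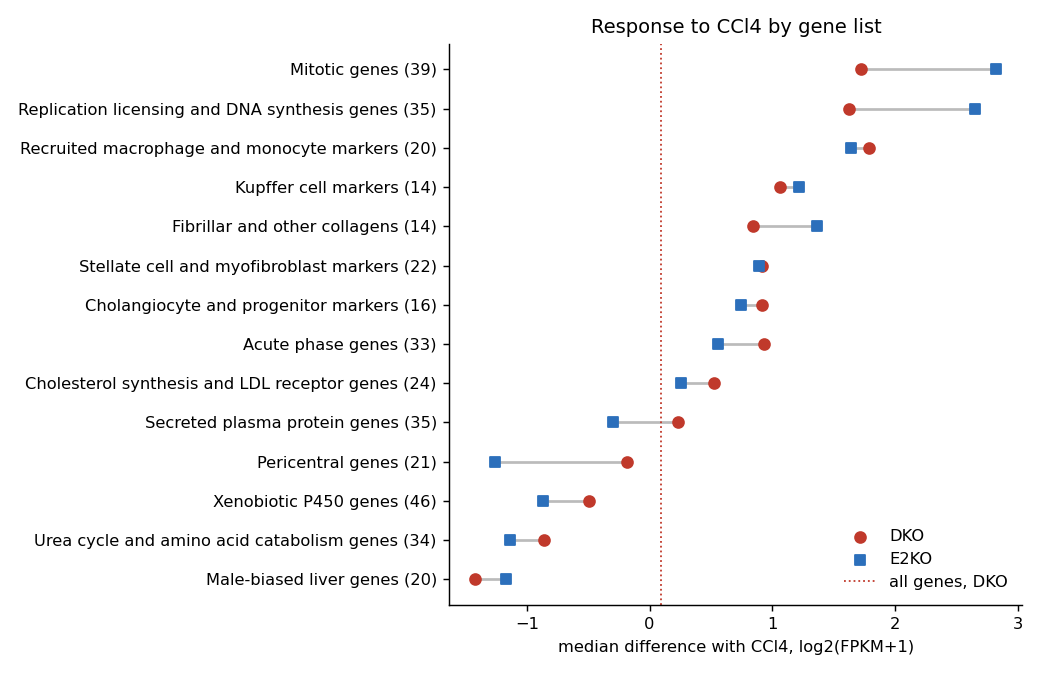
Median response to CCl4 of 14 gene lists, as a difference of log2(FPKM+1), in DKO (circles) and E2KO (squares), with the number of genes in brackets and the median of all genes in DKO (0.09) as a dotted line. Mitotic genes lie at 1.73 in DKO and 2.83 in E2KO, and pericentral genes at -0.18 and -1.26.

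Ezh1 was 0.07 FPKM in untreated DKO liver and 0.27 with CCl4, against 2.50 and 1.96 FPKM in E2KO, as its deletion in every cell implies. It stayed under 1 FPKM in both DKO groups and is thus outside the 11181 genes. Ezh2 rose with CCl4 in DKO, from 0.74 to 2.51 FPKM (1.01, SE 0.15, adjusted p = 0.0421), and was 0.84 and 3.92 FPKM in E2KO. It was 1.11 and 5.68 FPKM in WT, where no Cre acts, so the DKO response was the lowest of the 4. In the column labelled 8-month E1KO Ezh1 was 0.88 FPKM, against 0.07 and 0.20 in the other E1KO columns and 2.04 in WT at 8 months, which goes partly against its label; that column is in no main test. A value for the whole gene does not show the deleted exons, and liver cells other than hepatocytes keep Ezh2. Of the 9 PRC2 subunit genes of at least 1 FPKM only Ezh2 passed. The core subunits Eed (4.59 and 6.11 FPKM) and Suz12 (6.39 and 8.66 FPKM) did not.

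A wide gap between DKO and the other genotypes lay in the pericentral genes, those of the hepatocytes around the central vein. In DKO their 21 members had a median response of -0.18, against -1.26 in E2KO, -0.93 in WT and -1.55 in E1KO. Of the 21, 3 were at least 2-fold lower in DKO and 12 in E2KO. The DKO response was above those of the 3 other genotypes in 20 of 21, compared with 30.9% of all genes of the rule, and the exception was the Wnt feedback gene Nkd1. Only Slc1a2 passed, for the response as well as for the difference. Summed, they went from 8367 to 6843 FPKM in DKO (81.8%), and to 18.9% in E2KO, 24.5% in WT and 12.9% in E1KO.

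Cyp2e1, the enzyme that activates CCl4, was at 4759 FPKM in untreated DKO liver and 3857 FPKM in the treated one. The E2KO livers had 5883 and 386 FPKM. The DKO response was -0.30 and that of E2KO -3.93, with -3.53 in WT and -5.23 in E1KO. Thus the treated DKO liver held Cyp2e1 RNA near its untreated level, while the 3 other treated livers were all more than 3 log2 units down. The difference between DKO and the mean of the others was 3.93 (SE 0.78) and did not pass (adjusted p = 0.33), since the other 3 responses spread widely. At 8 months untreated DKO liver had 3778 FPKM of Cyp2e1.

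Slc1a2, a glutamate transporter of pericentral hepatocytes, fell in DKO from 27.7 to 10.8 FPKM (-1.29, SE 0.14, adjusted p = 0.0305). In E2KO it went from 30.7 to 0.15 FPKM, in WT from 26.6 to 0.13 and in E1KO from 32.8 to 0.27. The treated DKO value lay far above the 3 others, and the difference in response passed (3.42, SE 0.16, adjusted p = 0.0129). The 3 others were near 0 with CCl4, where the added 1 FPKM draws their responses together and makes the SE small. With a pseudocount of 0.1 FPKM, with 5 FPKM as the minimum, or without the WT or E2KO columns no gene passed this test. Glul, glutamine synthetase of the innermost hepatocytes, was 302 and 138 FPKM in DKO and 323 and 36.8 FPKM in E2KO. Oat, the ornithine aminotransferase of the same cells, was 494 and 173 FPKM in DKO and 455 and 14.9 FPKM in E2KO. Both were lower with CCl4 in DKO without passing, at -1.13 for Glul (adjusted p = 0.0768) and -1.51 for Oat (adjusted p = 0.195).

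For other members the DKO values lay close together, and 5 of the 21 were higher with CCl4 than without. Rgn, a calcium-binding lactonase of vitamin C synthesis, was 1128 and 1012 FPKM in DKO and 1330 and 391 FPKM in E2KO. Rhbg, an ammonium channel, was 6.73 and 10.1 FPKM in DKO and 5.13 and 1.18 FPKM in E2KO. Lgr5, a receptor gene of the Wnt pathway, was 1.07 and 0.86 FPKM in DKO and 1.21 and 0.14 FPKM in E2KO. The aldehyde dehydrogenase gene Aldh3a2 stood at 40.6 and 67.1 FPKM in DKO and 61.3 and 23.4 FPKM in E2KO, but at 156 FPKM in untreated DKO of 8 months. None of these 4 passed the test of the DKO response. Lect2, a secreted chemotactic factor, was the member at least 2-fold higher in DKO, at 298 and 609 FPKM, and was 253 and 283 FPKM in E2KO.

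**Figure D2:**
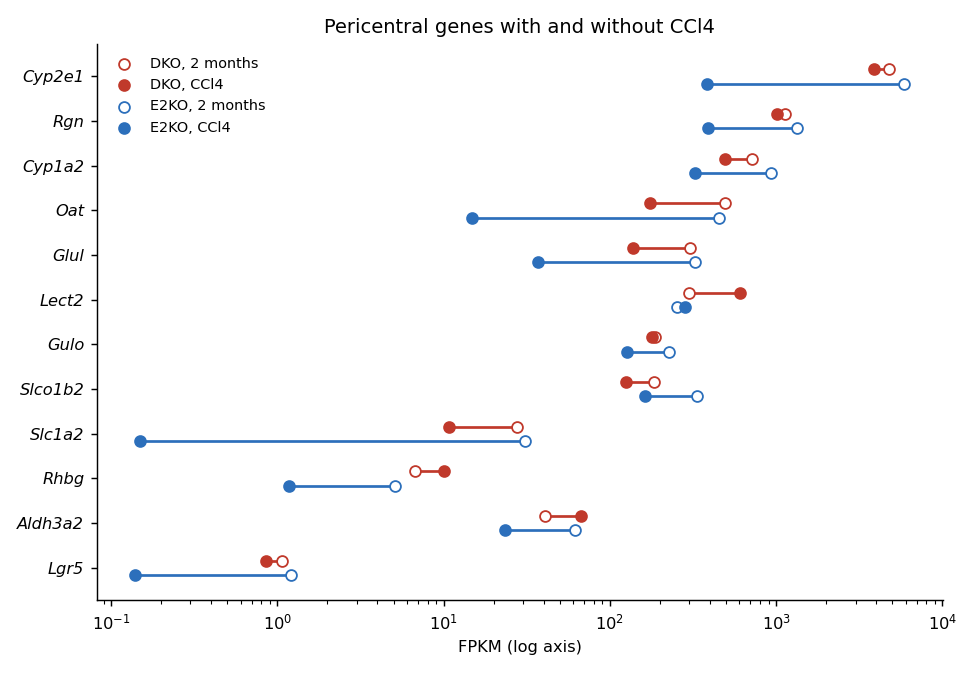
FPKM on a log axis of 12 pericentral genes at 2 months (open circles) and with CCl4 (filled circles) in DKO (red) and E2KO (blue), 1 value per group. Slc1a2 ends at 10.8 FPKM in DKO and 0.15 in E2KO, and Cyp2e1 at 3857 and 386.

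The wider set of xenobiotic P450 genes divided. Of 46 members in the rule 6 were at least 2-fold higher and 10 at least 2-fold lower in DKO (5 and 23 in E2KO), with medians of -0.49 and -0.87. The DKO response was the highest of the 4 genotypes in 25 and the lowest in 9, compared with 30.9% and 26.6% of all genes of the rule. Summed FPKM with CCl4 was 92.6% of that at 2 months in DKO, 40.3% in E2KO, 40.7% in WT and 30.7% in E1KO. Cyp2b10 (25.1 to 134 FPKM) and Cyp3a44 (5.63 to 27.2 FPKM) rose. In E2KO Cyp2b10 was 8.11 and 80.1 FPKM, a response of 3.155 against 2.374 in DKO. Cyp2f2, a periportal P450, fell from 505 to 51.7 FPKM in DKO (-3.27, SE 0.29, adjusted p = 0.0275) and was 1156 and 471 FPKM in E2KO. Here the DKO response was the lowest of the 4, opposite to the order seen for Cyp2e1. Cyp2c37, a pericentral P450 whose reads may be shared with close relatives, was 195 and 185 FPKM in DKO and 140 and 17.9 FPKM in E2KO. Cyp3a11, the main drug-metabolising P450 of its family, was 2423 and 3877 FPKM in DKO and 2896 and 2392 FPKM in E2KO, without passing (adjusted p = 0.193).

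Mitotic genes were higher with CCl4 in DKO, and by less than in any other genotype. Of 39 mitotic genes in the rule (4 more of 43 stayed under 1 FPKM) 37 were at least 2-fold higher and 13 rose by limma. Their median response was 1.73 in DKO, 2.83 in E2KO, 3.40 in WT and 2.57 in E1KO. In all 39 the DKO response was below those of the 3 other genotypes, compared with 26.6% of all genes of the rule. Summed FPKM went from 26.9 to 208 in DKO and from 20.2 to 503 in E2KO. None of the 39 passed the test of the difference one by one.

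Among them Top2a, the topoisomerase that untangles replicated DNA, rose from 0.27 to 6.07 FPKM in DKO (2.48, SE 0.31, adjusted p = 0.0341) and was 0.14 and 14.1 FPKM in E2KO. The activator of chromosome separation Cdc20 rose from 0.56 to 7.29 FPKM and was 0.29 and 21.2 FPKM in E2KO. Ccna2, cyclin A, rose from 1.90 to 8.12 FPKM and was 1.42 and 20.2 FPKM in E2KO. Cdk1, the kinase that drives entry to mitosis, was 0.81 and 9.49 FPKM in DKO and 0.46 and 23.8 FPKM in E2KO (DKO response 2.54, adjusted p = 0.0593). Stmn1, a microtubule regulator of dividing cells and 1 of the 12 largest rises, went from 6.58 to 70.9 FPKM and was 6.36 and 115 FPKM in E2KO, with 18.0 FPKM in DKO at 8 months. In each of these the treated DKO liver had the lowest value of the treated groups.

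For replication genes the DKO response was again the lowest by its median. Of 35 members in the rule 25 were at least 2-fold higher and 1 at least 2-fold lower, and limma called 19 rises and 1 fall. Medians were 1.63 in DKO, 2.65 in E2KO, 2.43 in WT and 2.15 in E1KO. The response was lowest in DKO for 30 of 35, compared with 26.6% of all genes of the rule. The replicative helicase subunit genes Mcm6 (0.83 to 19.8 FPKM in DKO, 0.89 and 45.5 in E2KO) and Mcm5 (0.45 to 14.2 FPKM in DKO, 0.50 and 31.8 in E2KO) were among the 12 largest rises, at 3.50 and 3.39. Pcna, the sliding clamp of the polymerase, rose from 23.1 to 73.2 FPKM and was 26.1 and 160 FPKM in E2KO. Uhrf1, which recruits maintenance DNA methylation, rose from 0.17 to 8.19 FPKM. The exception was Mcm10, listed at 21.6 FPKM in the untreated liver, which fell to 10.2 FPKM. Rfc3, a clamp loader subunit, had a like response in DKO (1.28) and E2KO (1.28).

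The cyclins and factors of the earlier cell cycle divided more. Of 17 members, E2f1, Ccne2 and Ccnd2 rose, Ccne2 not with centred columns (adjusted p = 0.0587). Ccnd2, a D-type cyclin, went from 0.98 to 7.36 FPKM in DKO and was 0.54 and 1.68 FPKM in E2KO, so its DKO response was the highest of the 4. Ccnd1, the D-type cyclin of dividing hepatocytes, was already 29.6 FPKM in untreated DKO and 71.1 FPKM after treatment, against 3.93 and 52.5 FPKM in the E2KO livers. The DKO response of Ccnd1 was 1.24 and did not pass (adjusted p = 0.247).

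**Figure D3:**
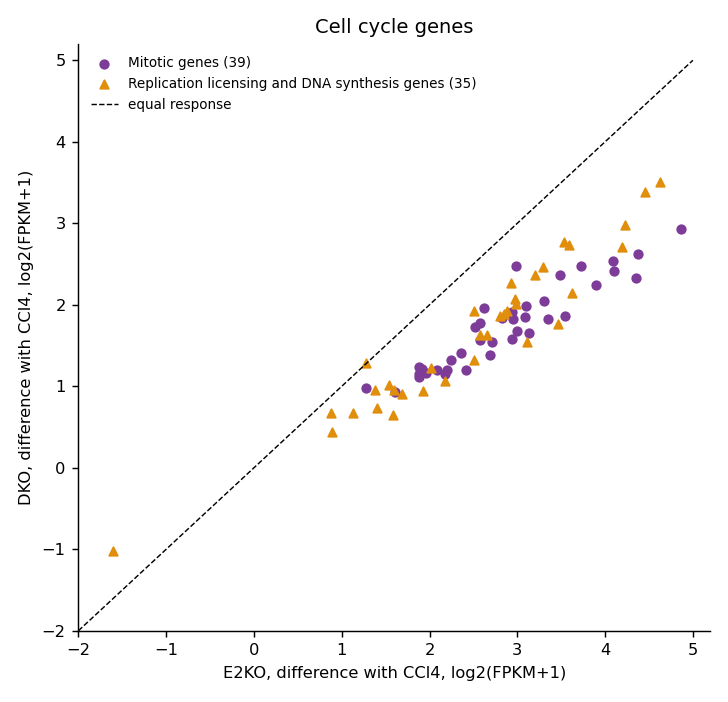
Response to CCl4 (difference of log2(FPKM+1)) of 39 mitotic genes (circles) and 35 replication genes (triangles) in E2KO (horizontal) and DKO (vertical), with the line of equal response dashed. All mitotic genes lie below the line. The point at the lower left is Mcm10.

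Mitotic promoters are known for a CCAAT box, bound by the factor NF-Y, beside a cell cycle homology region, TTTGAA, and replication promoters for E2F sites. Of both lists 5 promoters are shown as examples. They are the 3 mitotic genes with the largest DKO response among the 22 genes of the rule that hold both the CCAAT box and TTTGAA, and the 2 replication genes with the largest response among 13 of the rule with an E2F site. The sequences are RefSeq's (GRCm38.p6), 250 bases before to 50 after the gene's start, 5′ to 3′ on the gene's strand. They are Cdk1 (chr10:69352863-69353162, minus strand), Top2a (chr11:99024140-99024439, minus), Ccnb2 (chr9:70421505-70421804, minus), Mcm6 (chr1:128359656-128359955, minus) and Mcm5 (chr8:75109259-75109558, plus). Capitals mark CCAAT and the homology region in the first 3. In the last 2 they mark the E2F site, TTTGGCG or the same word with CC, GC or CG in place of its GG, and every motif was searched on both strands.
Cdk1: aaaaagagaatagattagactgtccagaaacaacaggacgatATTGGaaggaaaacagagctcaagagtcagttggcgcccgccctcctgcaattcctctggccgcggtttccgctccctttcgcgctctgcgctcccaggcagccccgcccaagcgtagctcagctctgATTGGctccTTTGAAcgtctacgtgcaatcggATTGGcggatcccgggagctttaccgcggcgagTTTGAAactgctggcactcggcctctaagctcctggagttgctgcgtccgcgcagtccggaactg
Top2a: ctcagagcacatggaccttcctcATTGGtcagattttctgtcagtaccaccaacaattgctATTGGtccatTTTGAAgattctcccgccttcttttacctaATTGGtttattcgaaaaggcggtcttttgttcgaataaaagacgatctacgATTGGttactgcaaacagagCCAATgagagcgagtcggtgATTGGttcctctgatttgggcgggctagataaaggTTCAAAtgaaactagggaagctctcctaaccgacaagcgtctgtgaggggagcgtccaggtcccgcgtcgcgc
Ccnb2: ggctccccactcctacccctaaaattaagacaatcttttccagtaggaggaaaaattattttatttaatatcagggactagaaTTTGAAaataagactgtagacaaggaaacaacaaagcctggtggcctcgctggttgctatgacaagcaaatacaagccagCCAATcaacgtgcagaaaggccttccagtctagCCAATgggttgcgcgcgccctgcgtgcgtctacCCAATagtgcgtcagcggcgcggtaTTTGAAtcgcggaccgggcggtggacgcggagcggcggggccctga
Mcm6: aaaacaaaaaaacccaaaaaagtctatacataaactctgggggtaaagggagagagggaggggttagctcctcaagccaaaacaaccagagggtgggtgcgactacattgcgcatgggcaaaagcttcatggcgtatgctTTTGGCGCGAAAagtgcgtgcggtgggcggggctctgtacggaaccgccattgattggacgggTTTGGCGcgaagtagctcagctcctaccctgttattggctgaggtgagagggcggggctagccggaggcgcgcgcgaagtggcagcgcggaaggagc
Mcm5: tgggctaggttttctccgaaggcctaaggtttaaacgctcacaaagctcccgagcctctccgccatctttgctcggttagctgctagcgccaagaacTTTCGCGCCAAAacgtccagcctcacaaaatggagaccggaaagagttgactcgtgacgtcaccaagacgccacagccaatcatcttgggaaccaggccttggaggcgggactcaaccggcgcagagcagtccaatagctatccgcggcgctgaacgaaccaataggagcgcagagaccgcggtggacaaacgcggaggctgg
A match on the other strand is printed as its reverse complement, so CCAAT can appear as ATTGG.

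Of 37 mitotic members with a promoter in the table (of 43) 62.2% held both CCAAT and TTTGAA, against 7.12% of all 27025 promoters (1 per gene, of the same length). CCAAT alone was in 78.4% of them and in 37.9% of all promoters, and TTTGAA in 70.3% and 18.1%. E2F matches were in 46.7% of 30 replication promoters (of 36 members), in 13.5% of mitotic ones and in 6.85% of all. The antioxidant response element, TGAC then any 3 bases then GC, was in 21.6% of 37 promoters of NRF2 targets and glutathione genes (of 42) and in 12.5% of all, but also in 21.6% of the mitotic promoters. These are matches of letters, and binding was not measured here.

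Of 6 cell cycle inhibitors in the rule 3 rose, Cdkn1a, Cdkn2a and Cdkn2b. Cdkn1a, the p53-induced inhibitor p21, rose from 1.39 to 36.6 FPKM in DKO (3.97, SE 0.35, adjusted p = 0.0275) and was 0.60 and 47.4 FPKM in E2KO, with 7.87 FPKM in DKO at 8 months. Cdkn2a, a Polycomb target that encodes p16 and p19, rose from 1.40 to 9.97 FPKM (2.19, SE 0.15, adjusted p = 0.0208). In E2KO it was 0.06 and 0.15 FPKM, and at 8 months DKO liver held 7.87 FPKM without CCl4. The difference in response did not pass (1.91, adjusted p = 0.0714). The error of both tests comes from the other genotypes, and values as low as those of E2KO leave little spread. These p-values of Cdkn2a are therefore weak support. Its neighbour Cdkn2b rose from 0.44 to 2.34 FPKM. With a pseudocount of 0.1 FPKM neither of the pair passed (adjusted p = 0.054 for Cdkn2a and 0.0522 for Cdkn2b). Cdkn1b was 9.73 and 5.68 FPKM and Cdkn1c 2.58 and 5.33 FPKM, and neither passed.

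Of 24 p53 targets 8 were at least 2-fold higher and 4 rose (median 0.49, and 0.56 in E2KO). Beside Cdkn1a these were Phlda3 (0.80 to 10.6 FPKM), Ccng1 (8.79 to 22.1 FPKM) and the receptor gene Eda2r (0.06 to 1.90 FPKM). Mdm2, the p53 feedback gene, was 6.42 and 6.57 FPKM.

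Fetal liver and oncofetal genes had a median response of 1.18 in DKO, 0.37 in E2KO, 0.47 in WT and 0.33 in E1KO, with members of different order. The members were taken on the DKO columns alone, so genes near 0 elsewhere raise only the DKO median. The DKO response was the highest in 7 of 13 and the lowest in 4, compared with 30.9% and 26.6% of all genes of the rule. Summed over 19 members, FPKM with CCl4 was 253% of that at 2 months in DKO. It was 695% in E2KO, 1350% in WT and 573% in E1KO. Of 13 members in the rule 7 were at least 2-fold higher and 6 rose (Afp, H19, Gpc3, Igf2, Scd2 and Ly6d), and the other 6 of 19 stayed under 1 FPKM. Igf2, a fetal growth factor, went from 0.51 to 11.3 FPKM in DKO (3.03). In all columns of the other genotypes it was at most 0.20 FPKM, with 0.10 and 0.11 in E2KO. It was thus close to absent in every other liver, and its error in the fit comes from those columns. H19, the non-coding RNA next to Igf2, rose from 2.52 to 6.96 FPKM and was 0.08 and 0.16 FPKM in E2KO. This call was lost with all 12 columns (adjusted p = 0.592) and with a pseudocount of 0.1 FPKM (adjusted p = 0.086).

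Gpc3, a cell surface proteoglycan made in the fetus and in liver tumours, rose from 2.52 to 32.3 FPKM in DKO (3.24, SE 0.15, adjusted p = 0.00881) and was 0.16 and 0.95 FPKM in E2KO. Its difference in response passed (2.37, SE 0.17, adjusted p = 0.0466), but with a pseudocount of 0.1 FPKM no gene passed this test. Gpc3 was 0.16 and 1.09 FPKM in WT and 0.21 and 1.43 FPKM in E1KO. At such low values the added 1 FPKM shrinks the response, so the size of this difference depends on it. Both Igf2 and Gpc3 were near their 2-month level at 8 months, at 0.48 and 3.25 FPKM. Scd2, which desaturates fatty acids in the embryonic liver, rose from 4.96 to 34.2 FPKM and was 0.48 and 2.38 FPKM in E2KO.

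Afp, alpha-fetoprotein, shows another order. It rose from 1.16 to 21.1 FPKM in DKO and was 0.88 and 12.2 FPKM in E2KO, 0.75 and 31.3 in WT, and 0.79 and 21.4 in E1KO. The DKO response lay within the range of the other 3. Ly6d, a surface protein of epithelial cells and the largest rise of all, went from 1.35 to 50.3 FPKM (4.45, SE 0.365, adjusted p = 0.0249). It was 0.92 and 51.4 FPKM in E2KO, so the DKO response was no larger, and it stood at 142 FPKM in DKO at 8 months without CCl4. Tff3, a secreted trefoil peptide, was already at 74.1 FPKM in untreated DKO and 61.4 FPKM with CCl4, against 5.81 and 7.77 in E2KO, and was 9.79 FPKM in DKO at 8 months. Its relative Tff2 went from 1.17 to 8.90 FPKM in DKO and was 0.63 and 0.87 FPKM in E2KO.

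**Figure D4:**
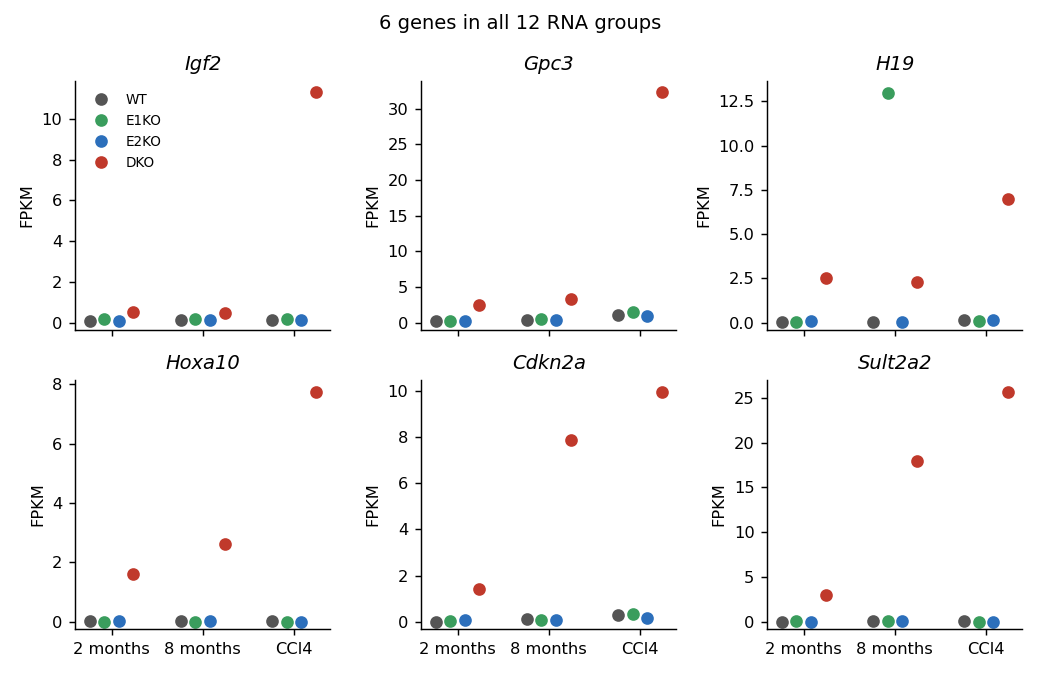
FPKM of Igf2, Gpc3, H19, Hoxa10, Cdkn2a and Sult2a2 at 2 months, at 8 months and with CCl4 in WT, E1KO, E2KO and DKO, side by side from left to right, 1 value per group. The DKO value with CCl4 is the highest of each panel except for H19, where the column labelled 8-month E1KO lies above it (13 FPKM).

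The Hox family, whose members pattern the embryo and are classic PRC2 targets, had 1 of 39 genes at 1 FPKM or more in untreated DKO, 9 with CCl4 and 5 at 8 months. No Hox gene reached 1 FPKM in E2KO, WT or E1KO at 2 months or with CCl4. They entered the rule through the DKO values, so their place above the other genotypes is fixed by the choice. Either DKO group could bring a gene in, so the rule does not set the direction with CCl4. The counts are a description. Among all genes of the rule, 1016 reached 1 FPKM in DKO only with CCl4 and 491 only at 2 months. Hoxa10 was 1.61 and 7.75 FPKM in DKO and 0.01 and 0.00 in E2KO, Hoxa11 was 0.66 and 3.67, Hoxd9 0.82 and 3.64, and Hoxc10 0.71 and 3.57 FPKM. Hoxa11as, an antisense transcript at the same locus as Hoxa11, went from 0.73 to 4.84 FPKM. The labels do not say whether strand was kept, so reads of the overlapping pair cannot be told apart.

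Among 79 transcription factors of development that Polycomb is known to bind, 11 were at least 1 FPKM in untreated DKO, 28 with CCl4 and 13 at 8 months. In E2KO 8 were at 2 months and 9 with CCl4. A gain was also seen among all genes of the rule, where 1016 reached 1 FPKM in DKO only with CCl4 and 491 only at 2 months. How far the gain of this list exceeds that general one was not tested. Examples of listed factors that crossed 1 FPKM in DKO are Gsc (0.38 and 2.02 FPKM), Sox2 (0.23 and 1.44) and Zic2 (0.20 and 1.43), each at most 0.03 FPKM in E2KO. Genes of the list that normal liver also uses were less divided: Gata4 was 3.72 and 5.39 FPKM in DKO and 2.84 and 4.82 in E2KO.

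Hepatocyte functions were lower in part. Of 34 urea cycle and amino acid genes 13 were at least 2-fold lower and none higher in DKO (median -0.86), against 21 lower in E2KO (median -1.14), and only Sds fell by limma. Sds, serine dehydratase, went from 442 to 141 FPKM and was 312 and 76.4 FPKM in E2KO. Bhmt, which remethylates homocysteine, was 2351 and 533 FPKM in DKO and 1729 and 699 FPKM in E2KO (adjusted p = 0.0524). Cps1, the first enzyme of the urea cycle, was 233 and 241 FPKM in DKO and 507 and 315 FPKM in E2KO. Of 35 secreted plasma protein genes 4 were at least 2-fold higher and 4 lower (median 0.24, and -0.30 in E2KO). In 25 of the 35 the DKO response was the highest of the 4 genotypes, compared with 30.9% of all genes of the rule. The clotting factor gene F13b rose (44.9 to 100.02 FPKM; with centred columns adjusted p = 0.0506) and F11 fell (43.6 to 16.2 FPKM).

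Male-biased liver genes, which depend on the pulsed growth hormone of males, were low with CCl4. The sex of the pooled animals is not given here. For these and the female-biased genes, a difference in sex between groups therefore cannot be told apart from CCl4 or age. Of 20 in the rule 14 were at least 2-fold lower in DKO and 11 in E2KO, and 3 fell by limma. Medians were -1.42 in DKO, -1.17 in E2KO, -1.48 in WT and -1.88 in E1KO, so DKO lay within the others, and against the 8-month DKO column the DKO median was -0.106. Hsd3b5, a steroid dehydrogenase, fell from 192 to 2.38 FPKM in DKO (-5.84, SE 0.73, adjusted p = 0.0344) and was 208 and 55.2 FPKM in E2KO. It was 0.88 FPKM in DKO at 8 months, so it was low in the older liver without CCl4 too. Ugt2b1, a glucuronosyltransferase, fell from 316 to 41.2 FPKM and was 570 and 116 in E2KO. Cyp4a12a fell from 182 to 31.6 FPKM and was 353 and 76.4 FPKM in E2KO, a call lost with all 12 columns (adjusted p = 0.0502). Mup20, a pheromone-binding urinary protein, was 1487 and 290 FPKM in DKO and 4616 and 6251 FPKM in E2KO, without passing (adjusted p = 0.0513).

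Female-biased genes split, with 5 rises and 4 falls among 24. Where the sulfotransferase genes below are among these calls, their error comes from genotypes close to 0 and their p-values are no support. The sulfotransferase genes Sult2a1 (12.8 to 52.7 FPKM) and Sult2a2 (2.96 to 25.7 FPKM) were higher with CCl4 in DKO, as was Sult2a5 (1.23 to 6.90 FPKM), and all 3 were at most 0.09 FPKM in every WT, E1KO and E2KO column at 2 months and with CCl4. The 3 genes resemble each other closely and the handling of shared reads is not stated, so which of them changed is uncertain. At 8 months DKO liver had 50.9, 18.0 and 8.44 FPKM of them without CCl4. Cyp2c69 fell from 89.5 to 3.80 FPKM and Hao2 from 27.1 to 13.5 FPKM, the latter not with a pseudocount of 0.1 FPKM (adjusted p = 0.149). At 8 months DKO liver had 1.58 FPKM of Cyp2c69 and 4.51 of Hao2, lower than with CCl4 in both cases.

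The largest fall was that of Serpina3c, a serine protease inhibitor, from 284 to 2.43 FPKM in DKO (-6.38, SE 0.63, adjusted p = 0.028). It was 53.6 and 212 FPKM in E2KO, 90.6 and 130 in WT and 288 and 365 in E1KO. Untreated DKO liver of 8 months had 38.1 FPKM. Thus it was lower with CCl4 in DKO and higher in the 3 others, by -7.31 on the log2 scale (SE 0.73), which did not pass (adjusted p = 0.0942). Serpina3 genes form a family of near-identical copies, so the assignment of reads is uncertain. In the same way Slco1a4, an organic anion carrier, fell from 22.1 to 5.96 FPKM and was 11.3 and 17.7 FPKM in E2KO (difference from the others -2.30, adjusted p = 0.0698). Serpina7, thyroxine-binding globulin, moved the other way: it rose from 25.6 to 92.7 FPKM in DKO and was 17.4 and 10.5 in E2KO, 17.6 and 11.4 in WT, and 14.8 and 9.03 in E1KO. Its difference in response passed (2.46, SE 0.16, adjusted p = 0.0363), but with a pseudocount of 0.1 FPKM no gene passed this test.

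Several of the 12 largest falls had like values in E2KO, given in brackets. Cyp2d13 went from 73.5 to 7.70 FPKM (74.9 and 7.93 in E2KO), and Mlxipl, the carbohydrate-response factor ChREBP, from 39.9 to 5.63 FPKM (49.6 and 5.65). Fam193b went from 11.2 to 0.86 FPKM (9.77 and 0.78), and Arl4d, a small GTPase, from 68.4 to 9.59 FPKM (47.8 and 6.58). Neat1, the RNA scaffold of paraspeckles, went from 16.4 to 1.45 FPKM (10.1 and 1.45). Csrp3, a LIM protein, fell from 29.9 to 1.18 FPKM (23.9 and 8.55), with 6.66 FPKM in DKO at 8 months, and Mup6 from 30.4 to 3.32 FPKM (26.1 and 9.17), with the reservation that Mup copies are near-identical. Nat8, an acetyltransferase and 1 of the 12 largest rises, went from 1.28 to 25.7 FPKM (6.83 and 17.0) and was 39.8 FPKM in DKO at 8 months. S100g, a calcium-binding protein, rose from 1.92 to 7.06 FPKM in DKO and was 0.25 and 12.5 FPKM in E2KO, and the difference from the others did not pass (-1.88, adjusted p = 0.0646). Cd63, a tetraspanin of lysosomes, rose from 30.8 to 126 FPKM in DKO and was 5.65 and 95.9 FPKM in E2KO (difference from the others -1.91, adjusted p = 0.113), so its treated levels were closer than its untreated ones.

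Stellate cell and myofibroblast markers divided. Of 22 in the rule the DKO response was the lowest of the 4 genotypes in 11 and the highest in 8, compared with 26.6% and 30.9% of all genes of the rule. Among the 11 were 4 genes of the contractile apparatus, singled out after their values were seen. Tpm1, a further gene of that apparatus, was also among the 11 but rose, as given below. Acta2, smooth muscle actin and the usual mark of the activated stellate cell, was 2.71 and 6.98 FPKM in DKO. In E2KO it was 2.03 and 31.4 FPKM, in WT the response was 3.95 and in E1KO 4.15, against 1.11 in DKO (adjusted p = 0.0815). Tagln, an actin-bundling protein of smooth muscle, was 8.11 and 19.1 FPKM in DKO and 4.60 and 56.3 FPKM in E2KO. Myl9, a myosin light chain, was 6.46 and 7.58 FPKM in DKO and 3.65 and 21.7 FPKM in E2KO. For Myl9 the difference from the others was -2.03 (SE 0.16, adjusted p = 0.0554). Tpm2 was 4.15 and 4.45 FPKM in DKO and 2.55 and 5.25 FPKM in E2KO. No difference between DKO and the others passed for these 4.

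Of the 22 markers 10 were at least 2-fold higher, 8 rose and 1, Mylk, fell (median 0.92, and 0.90 in E2KO). Lrat, which stores vitamin A in stellate cells, rose from 1.77 to 5.53 FPKM and was 1.95 and 2.68 FPKM in E2KO. The stellate cell transcription factors Hand2 (3.31 to 6.36 FPKM) and Lhx2 (1.61 to 4.03 FPKM) rose, against 2.64 and 2.88, and 1.22 and 1.37, in E2KO. The receptor gene Pdgfra (0.64 to 2.46 FPKM), Cygb (2.67 to 9.58 FPKM), the matrix gene Tgfbi (12.8 to 36.5 FPKM), Vim and Tpm1 also rose. Lrat, Hand2, Lhx2, Pdgfra, Cygb and Tgfbi are 6 of the 8 with the highest response in DKO, while Vim and Tpm1 are among the 11 with the lowest. The call of Lhx2 was lost with a pseudocount of 0.1 FPKM (adjusted p = 0.0598) and that of Tpm1 with all 12 columns (adjusted p = 0.375).

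The main scar collagens started higher in DKO than in E2KO. Of 14 in the rule 5 were at least 2-fold higher and 2 lower in DKO, against 10 and 1 in E2KO, with medians of 0.84 and 1.36, and limma called 4 rises and 1 fall. Col1a1, the main collagen of scars, rose from 4.99 to 17.5 FPKM in DKO (1.63, SE 0.165, adjusted p = 0.0289) and was 1.34 and 16.1 FPKM in E2KO. Col3a1 was 17.3 and 47.7 FPKM in DKO and 5.13 and 32.7 FPKM in E2KO. Col1a2 rose from 8.09 to 22.3 FPKM and was 2.65 and 18.6 FPKM in E2KO. Thus the treated livers had like Col1a1 levels and the untreated ones did not. The basement membrane collagen Col4a1 was 7.33 and 10.4 FPKM in DKO and 2.25 and 11.6 FPKM in E2KO. Col27a1 fell from 5.47 to 0.59 FPKM.

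Of 20 markers of recruited macrophages and monocytes 18 were at least 2-fold higher and 8 rose (median 1.79, and 1.64 in E2KO, 1.23 in WT, 2.10 in E1KO). Gpnmb, a glycoprotein of lipid-laden macrophages, rose from 0.06 to 17.7 FPKM in DKO (4.14, SE 0.35, adjusted p = 0.0266) and was 0.22 and 2.61 FPKM in E2KO, 0.07 and 1.65 in WT, and 0.03 and 3.90 in E1KO. Trem2, a lipid receptor of scar-associated macrophages, rose from 0.52 to 17.1 FPKM and was 0.37 and 8.59 FPKM in E2KO. Lgals3, galectin-3, rose from 3.54 to 54.1 FPKM and was 2.47 and 22.7 FPKM in E2KO. Lyz2, lysozyme, was 25.3 and 201 FPKM in DKO and 19.4 and 132 FPKM in E2KO, and did not pass. Gpnmb, Trem2 and Lgals3 are 3 of the 5 markers of 20 with the highest response in DKO, and 4 were lowest there, a share of highest ones below that of all genes. None of these 3 differences passed (2.43 for Gpnmb, adjusted p = 0.284).

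Resident Kupffer cell markers divided. Of 14, 8 were at least 2-fold higher and 4 rose: Cd5l (19.4 to 90.7 FPKM), C1qb (36.4 to 125), Emr1, the F4/80 gene (1.44 to 9.04), and Cd68 (7.39 to 32.2). Clec4f, which marks the resident cell itself, was 34.9 and 37.4 FPKM in DKO and 21.9 and 30.5 in E2KO, and Timd4 was 2.31 and 3.37 FPKM. Of 14 neutrophil markers 4 were in the rule, all at least 2-fold higher, and the other 10 stayed under 1 FPKM in DKO. Prtn3 and Retnlg rose, Prtn3 not with a pseudocount of 0.1 FPKM (adjusted p = 0.0617). All 4 had their highest response in DKO, compared with 30.9% of all genes of the rule. They were chosen on the DKO columns alone, which favours such a result. S100a8 was 4.07 and 26.1 FPKM in DKO and 1.67 and 10.7 FPKM in E2KO. Lymphocyte markers were low, at a sum of 11.97 and 14.5 FPKM over 20 genes. The part of these changes in cell markers in the hepatocyte results was not tested.

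Cxcl1, a chemokine that draws neutrophils, rose from 4.12 to 52.9 FPKM in DKO (3.40, SE 0.41, adjusted p = 0.0324) and was 4.57 and 11.4 FPKM in E2KO, 9.44 and 9.64 in WT, and 7.63 and 10.3 in E1KO. It was the only call among 21 chemokine and cytokine genes. Socs3, which STAT3 induces as its own brake, rose from 1.73 to 16.8 FPKM in DKO (2.70, SE 0.28, adjusted p = 0.0298) and was 2.10 and 2.92 FPKM in E2KO. For both, the treated DKO liver stood above the 3 other treated livers, and the difference in response did not pass (adjusted p = 0.279 for Cxcl1).

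Among acute phase genes Socs3 was the only call. Of 33, 15 were at least 2-fold higher in DKO and 15 in E2KO (medians 0.94 and 0.56, with -0.45 in WT). Saa2, serum amyloid A, was 80.2 and 962 FPKM in DKO and 260 and 2965 FPKM in E2KO, whereas WT had 2175 FPKM untreated and 726 FPKM with CCl4. The untreated WT column was thus itself high in Saa2, and the SE of its DKO response was 2.50. Saa2 shares most of its sequence with Saa1. Mt1 and Mt2, metallothioneins that bind zinc, were 281 and 1533, and 68.5 and 1001 FPKM in DKO, against 60.4 and 222, and 7.29 and 130 FPKM in E2KO. Neither passed (adjusted p = 0.339 for Mt1).

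**Figure D5:**
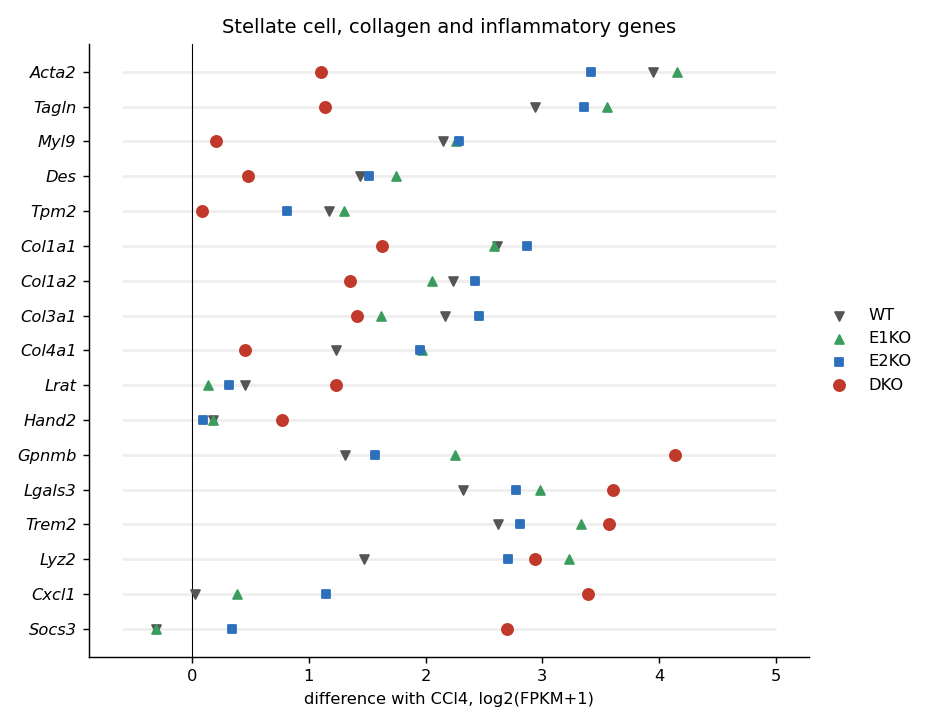
Response to CCl4 (difference of log2(FPKM+1)) of 17 stellate cell, collagen and inflammatory genes in WT, E1KO, E2KO and DKO, 1 value per genotype. DKO (circles) lies lowest for Acta2, Tagln and Myl9 and highest for Lrat, Gpnmb, Cxcl1 and Socs3.

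Bile duct and progenitor markers summed to 119 FPKM in untreated DKO and 734 with CCl4, most of it Spp1. The sums were 63.0 and 352 FPKM in E2KO, 80.6 and 442 in WT, and 81.0 and 689 in E1KO. With CCl4 they were thus 615% of the 2-month sum in DKO and 851% in E1KO. Of 16 in the rule 7 were at least 2-fold higher, 1 lower (Krt23) and 8 rose (median 0.92, and 0.75 in E2KO). Spp1, osteopontin, which macrophages also make, rose from 84.3 to 684 FPKM and was 40.5 and 311 FPKM in E2KO, with 290.01 FPKM in DKO at 8 months. Cd24a, a surface protein of progenitors, rose from 0.95 to 6.97 FPKM and was 0.75 and 2.24 FPKM in E2KO. The tight junction gene Cldn7 (1.92 to 6.92 FPKM) and Prom1 (0.39 to 2.47 FPKM) rose, and were at most 0.38 FPKM in E2KO. Cldn7 did not pass with a pseudocount of 0.1 FPKM (adjusted p = 0.0543). The defining duct keratins were low: Krt19 was 1.01 and 1.86 FPKM in DKO and 0.57 and 2.93 in E2KO, and Krt7 was 0.59 and 1.49 FPKM. Sinusoidal endothelial markers (21 in the rule) had 3 at least 2-fold higher and 1 rise, Fcgr2b, lost with all 12 columns (adjusted p = 0.108), with a median of 0.57, and 0.89 in E2KO.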

How the data were processed

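Whole-liver RNA of 12 groups (4 genotypes at 2 months, at 8 months and with CCl4) was read from the deposited table of FPKM, 1 value per gene and group. FPKM is a unit the authors computed before deposit, with reads per the submitters' processing notes handled by CASAVA, TopHat and Cufflinks on mm9, no versions given. Libraries came from 1 ug total RNA (TruSeq, per the labels' protocols). Depth is unknown, so no interval for counting error is given, and the replicates named in the titles cannot be separated. BWA, SICER and HOMER are named as well, and the 9 ChIP-seq samples were not analysed here.

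Values were compared as log2(FPKM+1). The test was limma 3.58.1 in R 4.3.3 (8 columns, terms for genotype, CCl4 and a DKO response, eBayes with trend, 11695 genes that reached 1 FPKM in any column), two-sided, with Benjamini-Hochberg adjustment over all genes fitted. The fit has 2 residual degrees of freedom and 4.24 with the prior. It was tested on simulated data. Named genes are Ezh1 and Ezh2, the 12 largest rises and 12 largest falls past limma, the 10 largest differences from the other genotypes in each direction (or, where fewer than 5 pass, the 5 of smallest p), members of each list past limma and up to 4 others of high FPKM or that show how a list divides. Where a list has many calls, examples are printed. Predicted genes, clone names, pseudogenes and small RNA genes were left out of these ranks. The members and the 47 gene lists were chosen with earlier results of these data known. Alternatives were the pseudocount, column centring, quantile normalization, the filter, the 8-month baseline, the columns fitted and the variance prior. Leaving out small RNA genes was chosen after seeing the data. Some abundant liver genes, such as Alb, Ttr and Apoa1, were not analysed here. Promoters are RefSeq's (GRCm38.p6), matched by symbol.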

Additional observations from a re-analysis of the deposited data

Results flagged for a closer look

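In 10 genes the response of DKO to CCl4 differed from the mean response of WT, E1KO and E2KO by the limma test of that difference (adjusted p under 0.05). On the log2(FPKM+1) scale the difference was 3.424 for Slc1a2, which fell less in DKO. It was 3.014 for Igf2, 2.371 for Gpc3 and 1.95 for Tff2. For the sulfotransferase genes it was 2.739 (Sult2a2), 1.905 (Sult2a1) and 1.83 (Sult2a5), and for Serpina7 2.457. Hoxa11as and Hoxa10 both differed by 1.75. Of the 10, all but Slc1a2, Serpina7 and Gpc3, that is 7, were under 1 FPKM in all 6 columns of the other genotypes. They entered the fit through DKO and their error comes from genotypes close to 0, so their p-values are no support. With a pseudocount of 0.1 FPKM, with 5 FPKM as the minimum, or without the WT or E2KO columns no gene passed.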

How the results depend on the processing

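No paired analysis was possible because each group is 1 column of pooled replicates. Of genes past 2-fold in DKO (998 higher, 464 lower), a pseudocount of 0.1 FPKM gave 1585 and 743, and a minimum of 5 FPKM gave 639 and 380. The share of higher calls was 68.3%, and 58.7% against the 8-month column. The limma response calls (638 and 319) were 257 and 145 at 5 FPKM, 1195 and 385 with no filter, 1463 and 633 with all 12 columns, 677 and 543 with centred columns, 655 and 759 with quantile normalization, and 1422 and 645 without small RNA genes. The share of higher calls was 66.7%, 55.5% with centring and 46.3% with quantile normalization. Without one genotype they were 14 and 12 (WT), 1080 and 427 (E1KO), and 0 and 0 (E2KO). The difference calls (18 and 11) were 0 and 0 with a pseudocount of 0.1 FPKM, at 5 FPKM, without WT, without E2KO and against E2KO alone, where limma gave 1026, 665, 733, 684 and 722 genes at an unadjusted p under 0.05. They were 12 and 16 without E1KO, 694 and 209 with no filter, 68 and 22 with all 12 columns, 11 and 11 without the trend, and 23 and 4 without small RNA genes. The cause was not tested. Against 8 months the sign turned, among genes past limma that the text names, for Ly6d (-1.483), Nat8 (-0.614), Sult2a5 (-0.257), Hsd3b5 (0.846), Cyp2c69 (0.896) and Hao2 (1.394), and, among others it names, for Aldh3a2 (-1.21), Tff3 (2.53), Cyp2c37 (0.68), Cyp2e1 (0.03), Krt19 (-0.098), Krt7 (-0.106), Rhbg (-0.044) and Mdm2 (-0.047). It turned for the medians of pancreatic acinar (0.049), adipose (-1.55), NRF2 (-0.33), fatty acid oxidation (-0.29), lipid droplet (-0.20), nuclear receptor (0.032) and lymphocyte genes (-0.066). Of the 134 genes named or ranked, calls of the DKO response were lost in 9 with a pseudocount of 0.1 FPKM (Cdkn2a, Cdkn2b, Cldn7, H19, Hao2, Hoxd9, Lhx2, Prtn3, Sox2), in 3 with centring (Ccne2, F13b, Fcgr2b) and in 4 with all 12 columns (Cyp4a12a, Fcgr2b, H19, Tpm1). The last fit includes the column labelled 8-month E1KO, in which Ezh1 was 0.88 FPKM. Centring turned Clec4f (-0.01), Cps1 (-0.055), Mdm2 (-0.077) and Tpm2 (-0.024), all near 0. With 1 value per group, unknown depth and an age gap, calls describe these pools.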

Other observations

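Of 24 cholesterol synthesis genes 5 were at least 2-fold higher in DKO and 4 rose by limma (median 0.53, and 0.26 in E2KO). Of 21 MHC and antigen presentation genes 6 were at least 2-fold higher (median 0.60, and 0.34 in E2KO) and 2 rose. Of 30 interferon-stimulated genes 1 rose and 3 fell (median -0.26). Of 28 genes of the unfolded protein and integrated stress response 1 rose and 1 fell, and the median was 0.31, with 0.47 in E2KO.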
